A study of Homo sapiens with 15 samples.

Results

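The genes described here are 10 members of the cellular oxygen-sensing system, chosen by name: the HIF alpha subunits HIF1A, EPAS1 (HIF-2 alpha) and HIF3A, their partner ARNT (HIF-1 beta), the prolyl hydroxylases EGLN1, EGLN2 and EGLN3, the ubiquitin ligase subunit VHL, the asparaginyl hydroxylase HIF1AN and the transcriptional regulator CITED2. All 10 were listed in the table of MRC5 cells, which holds 16382 genes, and in the table of H196 cells, which holds 16076 genes. MRC5 is a human lung fibroblast line, H196 a non-neuroendocrine (non-NE) small cell lung cancer (SCLC) line and H69 a neuroendocrine (NE) SCLC line. The 5 groups are mono-cultured MRC5 (MRC5_Mo), MRC5 co-cultured with H69 (MRC5_coH69), MRC5 co-cultured with H196 (MRC5_coH196), mono-cultured H196 (H196_Mo) and H196 co-cultured with MRC5 (H196_Co), with the partners kept apart by the porous membrane of a transwell insert for a week. RNA selected with oligo(dT) was sequenced from 3 libraries per group, 15 in all. Each cell type was represented by a single line. No hypoxic group was among these samples, and the labels and methods give no oxygen measurement.

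In the presence of oxygen, EGLN enzymes hydroxylate prolines of the HIF alpha proteins, VHL binds the hydroxylated form and the alpha protein is degraded. When oxygen is low, alpha subunits persist, pair with ARNT and bind DNA at hypoxia response elements whose core is ACGTG or GCGTG. HIF activity is controlled mainly at the protein level, which RNA-seq does not measure, and EGLN1 and EGLN3 are themselves well-known HIF target genes. In the paper, protein blots of H196 cells showed no change of HIF-1 alpha with co-culture.

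The promoters of EGLN1, EGLN2, EGLN3, HIF3A and CITED2 are shown because the members with a large difference in the fibroblasts were EGLN1, EGLN3, HIF3A and CITED2, and because EGLN2 is the prolyl hydroxylase that fell. Each window runs from 250 bases before to 50 after the RefSeq start of the gene in GRCh38.p14, 5′ to 3′ on the strand of the gene, with the cores ACGTG and GCGTG, searched on both strands, in capitals. The EGLN1 window lies at chr1:231422238-231422537 on the minus strand, that of EGLN2 at chr19:40798941-40799240 on the plus strand, that of EGLN3 at chr14:33951025-33951324 on the minus strand, that of HIF3A at chr19:46296792-46297091 on the plus strand and that of CITED2 at chr6:139374599-139374898 on the minus strand.
EGLN1: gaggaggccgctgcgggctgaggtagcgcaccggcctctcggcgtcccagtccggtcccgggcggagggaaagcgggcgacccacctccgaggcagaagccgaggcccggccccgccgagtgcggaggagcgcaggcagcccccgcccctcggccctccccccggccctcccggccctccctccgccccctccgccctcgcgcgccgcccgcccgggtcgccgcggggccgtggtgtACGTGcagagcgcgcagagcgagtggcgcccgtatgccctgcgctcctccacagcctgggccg
EGLN2: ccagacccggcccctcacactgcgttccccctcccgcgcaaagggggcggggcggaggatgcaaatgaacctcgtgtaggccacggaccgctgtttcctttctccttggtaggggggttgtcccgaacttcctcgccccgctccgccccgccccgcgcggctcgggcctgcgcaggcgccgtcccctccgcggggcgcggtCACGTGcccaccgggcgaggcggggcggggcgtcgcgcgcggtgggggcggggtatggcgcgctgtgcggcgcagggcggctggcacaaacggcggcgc
EGLN3: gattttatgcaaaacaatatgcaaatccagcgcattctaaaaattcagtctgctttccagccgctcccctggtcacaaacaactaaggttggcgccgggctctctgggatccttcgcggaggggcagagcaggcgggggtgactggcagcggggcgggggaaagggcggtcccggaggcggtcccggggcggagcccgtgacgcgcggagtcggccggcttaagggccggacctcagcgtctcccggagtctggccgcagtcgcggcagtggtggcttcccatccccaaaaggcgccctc
HIF3A: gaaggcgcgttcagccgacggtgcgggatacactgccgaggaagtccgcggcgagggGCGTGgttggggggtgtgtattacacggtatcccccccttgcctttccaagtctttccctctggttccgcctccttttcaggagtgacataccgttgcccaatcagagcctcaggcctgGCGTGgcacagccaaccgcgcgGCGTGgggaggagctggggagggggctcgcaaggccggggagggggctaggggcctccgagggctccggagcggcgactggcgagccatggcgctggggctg
CITED2: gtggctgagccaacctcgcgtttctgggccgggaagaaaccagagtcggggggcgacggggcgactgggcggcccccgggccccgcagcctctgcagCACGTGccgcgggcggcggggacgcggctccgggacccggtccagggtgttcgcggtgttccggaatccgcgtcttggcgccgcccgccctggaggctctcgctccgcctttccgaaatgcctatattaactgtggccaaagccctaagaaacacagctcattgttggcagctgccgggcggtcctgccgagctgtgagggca
EGLN1 held a single ACGTG, whose first base lay at position -13 from the start. In EGLN2 and CITED2 the core formed the palindrome CACGTG, which counts as a match on each strand. HIF3A held GCGTG at 3 places, at -193, -74 and -52, and the EGLN3 window held neither core. Among the members not printed, HIF1A held GCGTG at -204 and EPAS1 at -117, while the ARNT and HIF1AN windows held neither. A promoter was matched for 9 of the 10 members, VHL being the other, and 6 of these 9 held ACGTG or GCGTG. Of 10387 promoters of genes tested in MRC5 cells, 63.1% held either core, and 48.4% of all 27305 RefSeq promoters did. The matches are a description of letters in the window and not of bound sites.

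Library totals ran from 18476890 to 19170560 counts in MRC5 and from 16073597 to 17358349 in H196. All 10 fibroblast markers searched reached 1 CPM (counts scaled to library size) in every MRC5 group, against 1 of 9 listed in H196 (COL1A1), and of 5 epithelial markers EPCAM and CDH1 stayed under 1 CPM in all groups. The keratins KRT8, KRT18 and KRT19 were present in MRC5_Mo at 12.6, 75.8 and 19.9 FPKM, and in MRC5_coH196 KRT8 and KRT19 were higher by 0.83 and 0.99 and KRT18 lower, at -0.25, on the log2 scale (edgeR). The summed fibroblast markers were 27000 to 30100 CPM in MRC5_Mo and 13000 to 13700 CPM in MRC5_coH196. Of the 10, COL1A1, COL1A2, COL3A1 and POSTN fell, by 1.57, 0.56, 2.09 and 0.44 on the log2 scale, PDGFRB, PDGFRA, LUM, DCN and FAP rose by 0.15 to 0.67, and THY1 did not pass. The part of these markers in the results below was not tested. The 3 NE markers listed for MRC5 stayed under 1 CPM in all MRC5 groups. In H196, 2 of 6 listed NE markers reached 1 CPM. SYP stood at 8.71 and 8.22 FPKM in H196_Mo and H196_Co, and DLL3 at 4.04 and 4.57 FPKM. Of 4 non-NE markers, YAP1, REST and AXL reached 1 CPM in all 5 groups and POU2F3 in none. The summed level of 95 marker genes of H196 RNA was 8.97 to 9.92 CPM in MRC5_Mo, 8.36 to 10.4 CPM in MRC5_coH69, and 23.7 to 61.8 CPM in MRC5_coH196. After subtraction of the MRC5_Mo mean, the MRC5_coH196 level was 0.181% to 0.663% of the level in H196 libraries. The highest counts of EGLN3 and HIF3A in an H196 library were 5 and 2. In bulk libraries, fewer cells with a transcript and less of it per cell cannot be told apart.

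Mono-cultured fibroblasts carried the mRNA of both main alpha subunits, whereas H196 carried that of HIF1A and almost none of EPAS1. The level of a gene per length, in FPKM (fragments scaled to gene length and library size), put CITED2 highest in MRC5_Mo at 151 ± 7.71 (SD, n = 3). HIF1A followed at 88.0 ± 2.05 FPKM and EPAS1 at 82.7 ± 5.80 FPKM, and these neighbours overlapped between libraries. EGLN2 stood next at 38.4 ± 1.26 FPKM, apart from both neighbours in the order. HIF1AN, EGLN1, VHL and ARNT lay between 9.69 and 11.7 FPKM as means, each overlapping the next, and HIF3A and EGLN3 were near 0. In H196_Mo the order was HIF1A, CITED2, EGLN2, EGLN1, VHL, ARNT and HIF1AN, with CITED2 and EGLN2 overlapping and EPAS1, EGLN3 and HIF3A at or under 0.20 FPKM as means. With MRC5 cells, H196 had CITED2 at 33.8 and EGLN1 at 33.4 FPKM at the head of the order, where they overlapped.

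**Figure D1:**
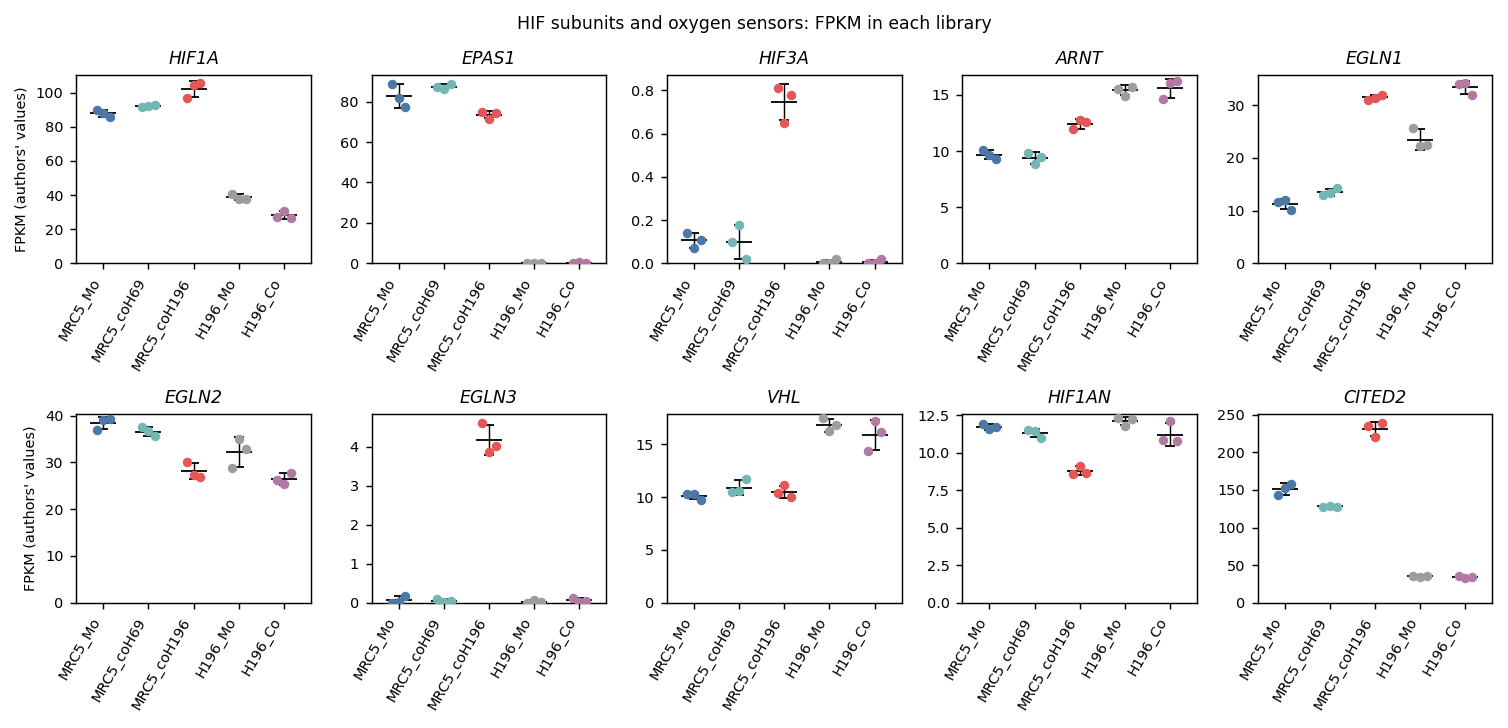
FPKM (vertical axis, linear, a scale for each gene) of the 10 members in each library of the 5 groups; points are libraries and black bars the mean ± SD of 3 libraries, cut at 0. EGLN3 exceeded 3 FPKM in the MRC5_coH196 libraries alone, and EPAS1 was above 70 FPKM in all MRC5 libraries and under 1 FPKM in all H196 libraries.

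The first question was which of these genes differ between the fibroblast and the tumor line before co-culture. EGLN3 and HIF3A, which reached 10 counts per library in MRC5_coH196 alone, had too few counts for this question, and no fold is given for them. Comparing MRC5_Mo with H196_Mo in a joint edgeR model of 15 libraries, the other 8 members all passed the test (adjusted p under 0.05), against 86.6% of all genes. Cell line and culture medium cannot be told apart in this comparison. EPAS1 was higher in MRC5 by 9.10 ± 0.108 (SE) on the log2 scale (adjusted p = 9.24e-32), CITED2 by 2.54 ± 0.0591, HIF1A by 1.63 ± 0.0539 and EGLN2 by 0.69 ± 0.0700. EGLN1 was lower in MRC5, with a log2 difference of -0.63 ± 0.0645 (adjusted p = 4.40e-10), and ARNT and VHL were lower by less, at -0.25 and -0.30. HIF1AN was higher in MRC5 by 0.33.

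With H196 cells as partner, the fibroblasts showed a rise of EGLN1 and CITED2 and a fall of EGLN2 and HIF1AN, and EGLN3 and HIF3A, near 0 in mono-culture, were detected in every MRC5_coH196 library. EGLN3 and HIF3A passed the filter on low counts only through MRC5_coH196, the group where they are high, so they had to differ and are left out of the counts. In MRC5_coH196 against MRC5_Mo, 7 of the other 8 members passed the edgeR test, 5 higher and 2 lower, where 74.3% of all 12819 tested genes passed, 37.2% higher and 37.1% lower. In TMM-scaled CPM the groups of 7 of these 8 did not overlap, which held for 75.5% of all genes. Of the 8, 2 were differentially expressed genes (DEGs, with an absolute log2 fold change above 0.58 as well), both higher, against 31.9% of all genes. The median log2 fold change was 0.31 over the 8 and close to 0 over all genes.

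Of the alpha subunits, HIF1A, the broadly expressed one, stood at 89.98, 88.26 and 85.90 FPKM in MRC5_Mo and at 97.17, 104.79 and 105.47 FPKM in MRC5_coH196. The groups did not overlap, and the log2 fold change was 0.39 ± 0.0416 (adjusted p = 5.93e-09, edgeR). On the log2(FPKM + 1) scale, where the median of all genes moved by -0.13, the difference of HIF1A was 0.22 (limma, adjusted p = 0.00144).

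EPAS1, known from endothelium and lung, had 88.91, 81.66 and 77.45 FPKM in MRC5_Mo and 74.68, 71.53 and 74.35 FPKM in MRC5_coH196. All 3 co-cultured values lay under the lowest mono-cultured FPKM, yet edgeR on TMM-scaled counts gave a log2 fold change of 0.01 with a 95% interval of -0.09 to 0.10 (adjusted p = 0.920). On the log2(FPKM + 1) scale the difference was -0.17 (limma, adjusted p = 0.0167), so its direction depended on the scaling and lay close to the all-gene median of that scale.

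HIF3A, whose products include inhibitory forms, had 9, 6 and 3 counts in MRC5_Mo and 79, 67 and 85 counts in MRC5_coH196. The groups did not overlap. As a description of a gene admitted to the fit through MRC5_coH196, the edgeR log2 difference was 3.81 ± 0.307 (SE), and it was 2.04 on the log2(FPKM + 0.1) and 0.66 on the log2(FPKM + 1) scale (limma). Without any filter on low counts edgeR gave 3.81 (adjusted p = 1e-15). Its level per length was still the lowest of the 10 members in MRC5_coH196, at 0.747 ± 0.0850 FPKM.

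ARNT, the constitutive partner of the alpha subunits, rose from 10.08, 9.65 and 9.34 FPKM to 11.94, 12.78 and 12.58 FPKM. These values did not overlap either, and the log2 fold change of 0.56 ± 0.0532 (adjusted p = 9.53e-10, edgeR) passed the test but not the fold limit of a DEG.

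The prolyl hydroxylases moved apart. EGLN1 (PHD2), the main hydroxylase of HIF-1 alpha, had 11.56, 12.0 and 10.19 FPKM in MRC5_Mo and 31.09, 31.29 and 32.02 FPKM in MRC5_coH196. Every co-cultured library exceeded every mono-cultured one, and edgeR gave a rise of 1.66 ± 0.0525 on the log2 scale (adjusted p = 3.36e-19).

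EGLN3 (PHD3) had 0, 1 and 8 counts in MRC5_Mo and 211, 171 and 184 counts in MRC5_coH196, which was 4.61, 3.87 and 4.02 FPKM. No mono-cultured library came near the co-cultured ones. As with HIF3A, the size is a description: the edgeR log2 difference was 6.07 ± 0.302 (SE), and 4.83 on the log2(FPKM + 0.1) and 2.28 on the log2(FPKM + 1) scale (limma). Without any filter edgeR gave 6.07 (adjusted p = 7.06e-24). That size rested on MRC5_Mo replicate 3, which held 8 of the 9 mono-culture counts, and leaving out that library gave 8.39, the highest of a range from 5.51.

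EGLN2 (PHD1), in contrast, fell from 36.96, 39.10 and 39.19 FPKM to 30.07, 27.32 and 26.84 FPKM. No library of one group reached the other, and the log2 fold change was -0.28 ± 0.0531 (adjusted p = 4.42e-05, edgeR).

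Within the fibroblasts the make-up of the EGLN transcripts differed between the cultures. EGLN2 made up 77.2% ± 1.59 (SD, n = 3) of the summed EGLN FPKM in MRC5_Mo and 44.0% ± 1.54 in MRC5_coH196. The share of EGLN1 was 22.6% ± 1.79 and 49.4% ± 1.91, and that of EGLN3 0.134% ± 0.199 and 6.53% ± 0.425, in the same order. The sum of the EGLN genes was 49.7 ± 1.31 FPKM in MRC5_Mo and 63.7 ± 1.80 FPKM in MRC5_coH196. No share overlapped between the groups, for an exact permutation p of 0.1, the smallest that 3 libraries against 3 allow.

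**Figure D2:**
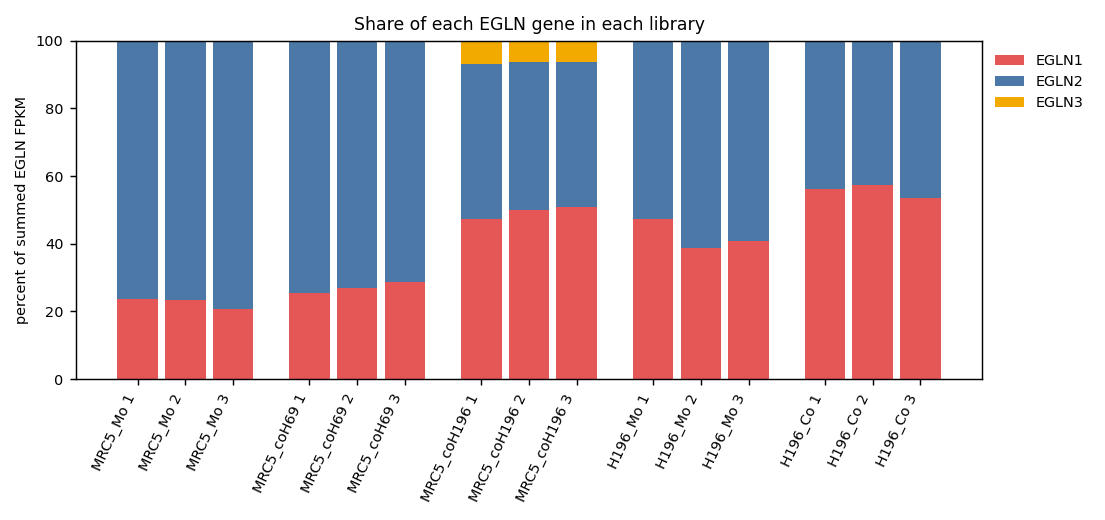
Share of EGLN1, EGLN2 and EGLN3 in the summed EGLN FPKM (vertical axis, percent) of each of the 15 libraries, one bar per library. EGLN1 exceeds 47% in the MRC5_coH196 libraries and stays under 29% in the other MRC5 libraries, and the EGLN3 band is visible in the MRC5_coH196 libraries alone.

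VHL, the substrate-binding subunit of the ligase that degrades hydroxylated alpha subunits, had 10.29, 10.26 and 9.77 FPKM in MRC5_Mo and 10.39, 11.16 and 10.01 FPKM in MRC5_coH196. The groups overlapped in FPKM, and the edgeR log2 fold change of 0.23 ± 0.0554 (adjusted p = 0.000629) became 0.05 on the log2(FPKM + 1) scale (limma, adjusted p = 0.423).

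HIF1AN (FIH), which hydroxylates an asparagine in the alpha subunits and so blocks their contact with the coactivators CBP and p300, had 11.93, 11.58 and 11.70 FPKM in MRC5_Mo and 8.59, 9.13 and 8.66 FPKM in MRC5_coH196. The groups were separate, and the edgeR log2 fold change was -0.21 ± 0.0442 (adjusted p = 0.000159).

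CITED2, a HIF target that competes with HIF-1 alpha for CBP and p300, had 142.76, 152.61 and 157.97 FPKM in MRC5_Mo and 235.14, 220.34 and 238.59 FPKM in MRC5_coH196. It was the most abundant member in both groups, and the difference was 0.79 ± 0.0463 on the log2 scale (adjusted p = 8.62e-14, edgeR).

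**Figure D3:**
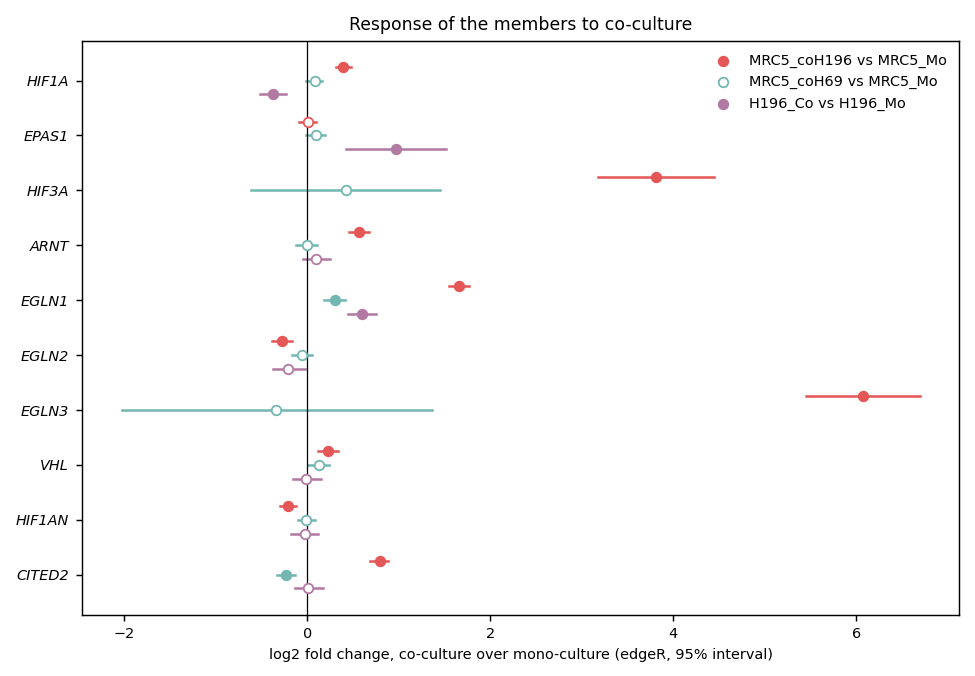
Log2 fold change (horizontal axis) of each member in the 3 comparisons of a co-culture with its mono-culture; points are edgeR estimates, lines their 95% intervals, and filled points passed the test at an adjusted p under 0.05. EGLN3 and HIF3A have no point for H196, where they were not tested because of low counts.

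With H69 as the partner the same genes moved little. In MRC5_coH69 against MRC5_Mo, 2 of the same 8 members passed the edgeR test, against 6.70% of all genes, and none was a DEG, against 0.554% of all genes. The groups did not overlap in CPM for 4 members (HIF1A, EGLN1, VHL and CITED2), against 25.7% of all genes. EGLN1 rose to 12.91, 13.42 and 14.32 FPKM, above all MRC5_Mo libraries, a log2 difference of 0.30 ± 0.0562 (adjusted p = 0.00143), which missed the threshold on the log2(FPKM + 1) scale (limma, adjusted p = 0.0626). CITED2 fell to 127.69, 129.02 and 126.85 FPKM, under all MRC5_Mo libraries, by 0.23 on the log2 scale (SE 0.0468, adjusted p = 0.00256), and missed the threshold on the log2(FPKM + 0.1) scale (limma, -0.24, adjusted p = 0.0698). EGLN3 had 4, 1 and 2 counts and HIF3A 10, 12 and 2 counts, both overlapping the mono-culture. HIF1A, at 91.38, 91.92 and 92.69 FPKM, differed by 0.08 with a 95% interval of -0.01 to 0.16, and EPAS1, at 86.94, 86.08 and 88.51 FPKM, by 0.09 with an interval of -0.01 to 0.19.

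The partners were also compared directly. In MRC5_coH196 against MRC5_coH69, which shares the MRC5_coH196 libraries with the comparison above, 6 of the 8 members passed the edgeR test (72.3% of all genes) and 2 were DEGs (28.2% of all genes). The log2 difference was 1.36 ± 0.0513 for EGLN1 and 1.02 ± 0.0467 for CITED2. For EGLN3 the counts were 211, 171 and 184 with H196 against 4, 1 and 2 with H69, and for HIF3A 79, 67 and 85 against 10, 12 and 2. EGLN2, at -0.22, and HIF1AN, at -0.20, were lower with H196 than with H69. EPAS1 and VHL did not pass, with differences of -0.08 and 0.10, though VHL passed without MRC5_coH69 replicate 3 (0.16, adjusted p = 0.021, edgeR) and EPAS1 on both FPKM scales (limma, -0.25 with adjusted p = 0.00385 and -0.24 with adjusted p = 0.0019).

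In the H196 cells, co-culture with fibroblasts came with higher EPAS1 and EGLN1 and lower HIF1A. Of the 8 members with enough counts to be tested in H196_Co against H196_Mo, 3 passed the edgeR test, against 19.8% of all 12806 genes, and 2 were DEGs, against 3.86%. The groups of 3 members did not overlap in CPM, as for 37.2% of all genes.

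HIF1A had 40.67, 37.70 and 37.79 FPKM in H196_Mo and 27.12, 30.94 and 26.83 FPKM in H196_Co. All co-cultured libraries were lower, and the log2 fold change was -0.38 ± 0.0710 (adjusted p = 0.000912, edgeR).

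EPAS1 had 16, 18 and 16 counts in H196_Mo and 27, 42 and 25 counts in H196_Co. The ranges did not overlap, and the log2 fold change was 0.97 ± 0.264 (adjusted p = 0.0134, edgeR). The level remained under 1 FPKM, and without H196_Co replicate 2 the change was 0.71 (adjusted p = 0.0888, edgeR), while DESeq2 gave an adjusted p of 0.0548.

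EGLN1 had 25.77, 22.21 and 22.54 FPKM in H196_Mo and 34.07, 34.16 and 32.02 FPKM in H196_Co. The groups lay apart, and the log2 fold change was 0.60 ± 0.0746 (adjusted p = 9.40e-06, edgeR). It fell below the fold limit of a DEG, to as low as 0.56, without H196_Co replicate 1 or H196_Mo replicate 2 or 3. EGLN2 had 28.75, 35.10 and 32.80 FPKM alone and 26.31, 25.33 and 27.78 FPKM with MRC5 cells, and its log2 difference of -0.21 missed the threshold (adjusted p = 0.0906, edgeR) but passed without H196_Mo replicate 1 (-0.30, adjusted p = 0.0164). As a share of the summed EGLN FPKM, EGLN1 stood at 42.2% ± 4.48 (SD, n = 3) in H196_Mo and 55.7% ± 2.01 in H196_Co, and the groups did not overlap (exact permutation test, p = 0.1, the smallest possible).

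ARNT, VHL, HIF1AN and CITED2 did not pass in H196, with log2 fold changes of 0.10, -0.01, -0.03 and 0.01 and 95% intervals that all lay between -0.18 and 0.25. EGLN3 had 0, 3 and 1 counts in H196_Mo and 5, 1 and 2 counts in H196_Co, and HIF3A at most 2 counts in any H196 library. A count of 0 allows up to 3 counts, or 0.173 to 0.187 CPM in these libraries. A difference of these genes was not detectable at this depth, and the limits cover counting error only.

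Whether fibroblasts and H196 cells answered each other's presence alike was tested as an interaction in the joint edgeR model, the log2 response of H196 minus that of MRC5 cells with H196. Of the 8 members other than EGLN3 and HIF3A, whose counts in H196 were too low, 7 passed, against 51.2% of all 13585 genes, and 4 differed by more than the DEG limit, against 24.7%.
EGLN1 rose in both lines and less in H196, by a log2 difference of -1.03 ± 0.0876 (adjusted p = 1.73e-10). HIF1A rose in MRC5 and fell in H196, and the difference was -0.74 ± 0.0754 (adjusted p = 5.13e-09). CITED2 differed by -0.75 ± 0.0809 (adjusted p = 1.58e-08), and ARNT by -0.43 ± 0.0826. EPAS1 was the DEG-sized member that responded more in H196, by 0.99 ± 0.250 (adjusted p = 0.00148), a value that rested on 16 to 42 counts per H196 library. VHL differed by -0.21 (adjusted p = 0.0484) and HIF1AN by 0.21 (adjusted p = 0.0209), both close to the threshold, and EGLN2 by 0.10, which did not pass (adjusted p = 0.435). The VHL call was lost without H196_Co replicate 1 or 3, H196_Mo replicate 1 or 3 or any of the MRC5_Mo libraries (-0.23 to -0.15), and the HIF1AN call without H196_Co replicate 2, MRC5_Mo replicate 3 or any of the MRC5_coH196 libraries (0.14 to 0.20).

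The balance of the alpha subunits was also read within each library as the log2 ratio of HIF1A to EPAS1 in FPKM. It was 0.02, 0.11 and 0.15 in MRC5_Mo, 0.07, 0.09 and 0.07 in MRC5_coH69, and 0.38, 0.55 and 0.50 in MRC5_coH196. The ratio was higher with H196 than alone by 0.39 ± 0.0645 (SE), without overlap (exact permutation test, p = 0.1, the smallest possible). In H196 it was 7.67, 7.49 and 7.64 alone and 6.36, 5.87 and 6.39 in co-culture, lower by 1.39 on the log2 scale with the same exact permutation p of 0.1. The ratio in H196 rested on 16 to 42 EPAS1 counts per library. The summed FPKM of HIF1A, EPAS1 and HIF3A was 171 ± 7.82 in MRC5_Mo and 177 ± 3.97 in MRC5_coH196, and 38.9 ± 1.68 in H196_Mo and 28.7 ± 2.41 in H196_Co.

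Other genes of the pathway were read from lists of known function. The lists were chosen with earlier results of these data known, so the shares called are a description and not a test. The target genes of HIF, 32 without the members, rose together in the fibroblasts with H196: 32 of 32 were DEGs and all were higher, where 17.2% of all genes were higher DEGs, and their median log2 fold change was 2.61. The largest changes were in CA9, a carbonic anhydrase, at 7.06 ± 0.173, ANKRD37 at 5.02 ± 0.156, NDRG1 at 4.93 ± 0.0630 and ANGPTL4 at 4.90 ± 0.0944. With H69, 9 of 32 passed, where 6.70% of all genes passed, and none was a DEG, against 0.554% of all genes, with a median of 0.13. In H196_Co, 27 of 31 tested targets were higher DEGs, against 3.26% of all genes, with a median of 1.15, and LOX, at -0.25, did not pass. ANKRD37 changed most there, at 3.23 ± 0.183, followed by HILPDA at 2.48 ± 0.0889, PFKFB4 at 2.06 ± 0.0741 and ANGPTL4 at 1.97 ± 0.0808. In the interaction test 29 of 32 targets passed, all 29 with the lower value in H196, where 24.1% of all genes passed in that direction. CA9 is among the 29, though no H196 library held more than 1 of its counts.

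The list of genes known in other cells as driven more by HIF-2 alpha held 7 genes, of which 4 were tested in each line. In MRC5_coH196 3 passed, all higher, where 74.3% of all genes passed, with a median of 0.40, among them CCND1, the cyclin D1 gene, at 0.39 ± 0.0415 and the Notch ligand gene DLL4 at 0.42 ± 0.0772. In H196_Co all 4 passed, 2 higher and 2 lower, where 19.8% of all genes passed. TGFA was higher at 0.38 ± 0.0682, and CCND1 and SLC11A2 were lower at -0.26 ± 0.0682 and -0.32 ± 0.0758 (edgeR).

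Of the 4 other subunits of the VHL ligase, 2 fell and none rose in MRC5_coH196, where 74.3% of all genes passed, 37.1% lower, with a median of -0.14, and the scaffold CUL2 fell by 0.44 (SE 0.0549, adjusted p = 1.03e-07, edgeR). In H196_Co, where 19.8% of all genes passed, CUL2 fell by 0.23 (adjusted p = 0.0379, edgeR) and the other 3 did not pass. None of the 4 was a DEG in either line, against 31.9% of all genes in MRC5_coH196 and 3.86% in H196_Co.

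Among 11 bHLH-PAS relatives of the HIF subunits, 9 were tested in the fibroblasts, where 5 rose, 2 fell and 3 were higher DEGs in MRC5_coH196. Of all genes 74.3% passed there and 17.2% were higher DEGs. NPAS1 had 4.52, 6.56 and 6.64 FPKM in MRC5_Mo and 18.77, 17.49 and 20.16 FPKM in MRC5_coH196, a log2 fold change of 1.90 ± 0.0990. NPAS2, a partner of BMAL1 in the circadian clock, rose by 0.69 ± 0.0737 and SIM2 by 0.59 ± 0.126. In H196_Co, 2 of 7 rose and 2 fell, where 19.8% of all genes passed. NPAS1 was the DEG there, at 0.85 ± 0.163, where 3.86% of all genes were DEGs.

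Of the 5 tested coactivators, 4 rose and 1 fell in MRC5_coH196, where 37.2% of all genes were higher and 37.1% lower. NCOA3, a p160 coactivator, was the DEG at 0.75 ± 0.0579, where 31.9% of all genes were DEGs. In H196_Co, where 19.8% of all genes passed and 3.86% were DEGs, CREBBP, EP300 and NCOA1 fell and CITED4 rose. Their log2 fold changes ran from -0.36 to 0.51, and none was a DEG. These values passed the edgeR test with adjusted p of 0.0479 or less.

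Of 13 other regulators of HIF alpha or of the EGLN enzymes, 5 rose and 6 fell in MRC5_coH196, with a median of 0.07, close to the 37.2% of all genes that were higher and the 37.1% that were lower. SIAH2, a ubiquitin ligase that targets EGLN3 for degradation, rose from 9.81, 9.28 and 10.56 FPKM to 19.20, 18.17 and 18.62 FPKM, a log2 fold change of 1.09 ± 0.0676. The chaperone HSP90AA1, which stabilizes HIF-1 alpha, fell by 0.74 (SE 0.0424), and SENP1, a SUMO protease acting on HIF-1 alpha, fell by 0.61 (SE 0.0733). In H196_Co SIAH2 was the single DEG of the 12 listed genes tested, at 0.70 ± 0.0962, where 3.86% of all genes were DEGs. HSP90AA1 rose there by 0.33 ± 0.0777, so that its responses in the lines differed by 1.10 ± 0.0817 (adjusted p = 1.43e-11, edgeR interaction).

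**Figure D4:**
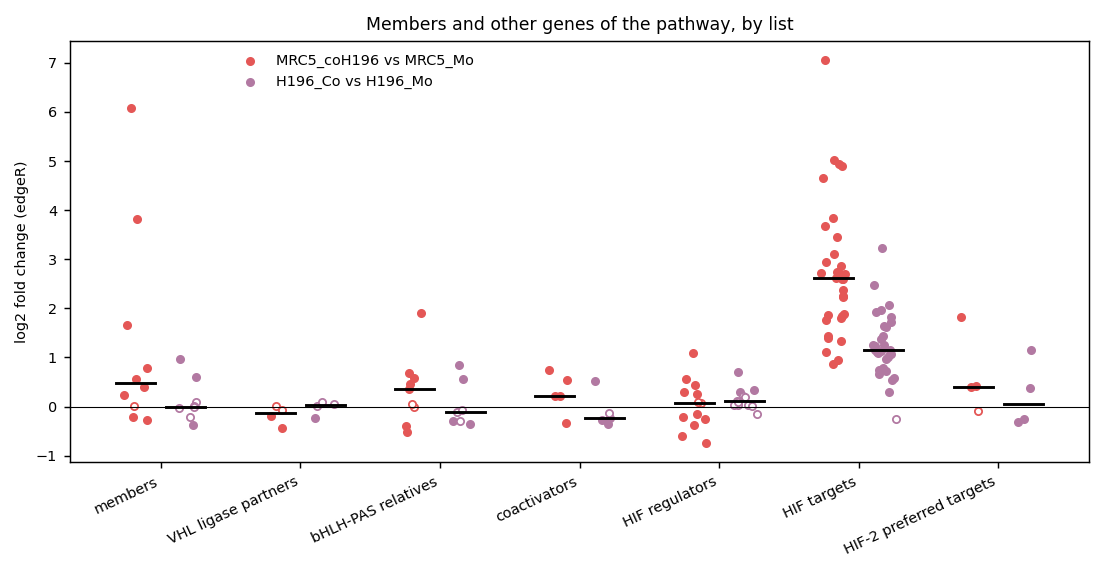
Log2 fold change (vertical axis, edgeR) of the members and of 6 other lists of pathway genes in MRC5_coH196 and in H196_Co, each against its mono-culture; points are genes, filled where the adjusted p is under 0.05, and black lines are medians, that of the members including EGLN3 and HIF3A. The medians of the HIF targets are 2.61 and 1.15, above those of every other list shown in both lines.

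Genes with the most similar pattern over the 9 MRC5 libraries were found by the root mean square difference of centred log2 CPM among 9227 genes. The smallest differences from HIF1A were 0.0252 for G3BP2, 0.0269 for BRD3 and 0.0289 for QKI, where the median gene differed by 0.233. For EPAS1 they were 0.0260 for EXOC6B, 0.0293 for TCEANC2 and 0.0354 for TNRC18, with a median of 0.188. EGLN1 was followed by SMAD9 at 0.0657, STC2 at 0.0665 and CCNG2 at 0.0685, with a median of 0.734. SMAD9, STC2 and CCNG2 rose by 1.61, 1.63 and 1.66 in MRC5_coH196, beside 1.66 for EGLN1. The 9 libraries share culture groups and sequencing, and these values are a description.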

How the data were processed

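RNA-seq of 15 libraries was used, 3 per group. The authors cleaned reads with SOAPnuke and aligned them to GRCh38.p13 with HISAT and, for gene sequences, Bowtie2. The submitters' processing notes name HISAT2 2.1.0, Bowtie2 2.3.4.3 and RSEM 1.3.1. The deposited expected counts are un-normalized estimates per gene, of which 93.7% (MRC5) and 92.1% (H196) were whole. The deposited FPKM values were computed by the authors and are given to 2 decimals. Further per-library columns (30, TPM and normalized counts) and the authors' own comparisons, which hold q-values, p-values and log2 fold changes made with DESeq2 per the file headers, were not used. The second copy of each table differed by over 0.000001 in 0 values.

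Counts were rounded and fitted with edgeR 4.0.16 in R 4.3.3 (TMM factors 0.916 to 1.05, filterByExpr, quasi-likelihood, two-sided, Benjamini-Hochberg over all genes tested). The 9 MRC5 and the 6 H196 libraries were fitted separately, and all 15 over the genes that both tables list (15320) for the interaction and MRC5_Mo against H196_Mo. DEGs were called at an adjusted p under 0.05 with a log2 change beyond 0.58 in size, the limit the study states. Standard errors are the log2 fold change over the square root of F. Alternatives were DESeq2 1.42.0, its size factors, limma 3.58.1 on log2 of FPKM plus 1 or plus 0.1, other filters and fold limits, a replicate block, the compared groups alone and each library left out. CPM used a prior count of 2 on the log2 scale. Nothing states that replicates came from separate cultures, so p-values measure the spread between these libraries, which may be technical. Replicate libraries all differed by more than sampling noise. HIF1A overlaps SNAPC1 in the annotation, and the strand setting of the counting is not given in the sources used here. On simulated data with 200 genes changed 2-fold, edgeR recovered 183 of them for MRC5_coH196 (12705 genes, 19 false calls), 194 for H196_Co (12744, 10) and 162 for the interaction (13508, 11). In the real MRC5_coH196 against MRC5_Mo comparison 74.3% of tested genes passed, so the simulation does not measure error rates or scaling under such broad change.

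All 10 members are named, with at most 4 DEGs of each other list per comparison by absolute log2 fold change, any other gene of those lists named to complete a count, and the 3 genes (mean of at least 10 CPM) most like HIF1A, EPAS1 and EGLN1 in pattern. Genes named to complete a count were chosen after their values were seen. The members and lists were chosen with earlier results of these data known. H196 RNA markers reached 20 CPM throughout the H196 libraries and stayed below 0.5 CPM throughout MRC5_Mo. INSM1 among the markers was not analysed here. Values of a single listed gene are left out of the text. All 10 members passed the low-count filter in MRC5 and 8 in H196, EGLN3 and HIF3A only through MRC5_coH196. Promoters are from RefSeq (GRCh38.p14). Same-numbered libraries did not deviate together (correlations from -0.151 to 0.081).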

Additional observations from a re-analysis of the deposited data

Results flagged for a closer look

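The co-culture responses of fibroblasts and H196 cells differed by a test of the difference itself in 7 of the 8 members with enough counts in both lines, given as the log2 response of H196 minus that of MRC5. EGLN3 passed as well but is left out, since it entered the model through MRC5_coH196 alone. The differences were -1.03 for EGLN1, -0.75 for CITED2, -0.74 for HIF1A, -0.43 for ARNT, -0.21 for VHL, 0.99 for EPAS1 and 0.21 for HIF1AN. The EPAS1 value rested on 16 to 42 counts per H196 library. HIF1A is the member that passed the test in both lines with opposite signs, 0.39 in MRC5_coH196 and -0.38 in H196_Co (edgeR). HIF1AN missed the threshold under DESeq2 size factors (0.16, adjusted p = 0.0715).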

How the results depend on the processing

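The count of DEGs among all 10 members, EGLN3 and HIF3A included, was 4 in MRC5_coH196 against MRC5_Mo and 4 against MRC5_coH69. A minimum of 10 counts in every library, which removes EGLN3 and HIF3A, left 2 in each, and without a fold limit there were 9 and 8, and 2 for MRC5_coH69 against MRC5_Mo in place of 0. For H196_Co the 2 DEGs became 1 under DESeq2 and with log2(FPKM + 0.1), and 0 with log2(FPKM + 1) or a fold limit of 1. Leaving out a library gave 1 to 2, EPAS1 being lost without H196_Co replicate 2 and EGLN1 (0.56 to 0.66) without H196_Co replicate 1 or H196_Mo replicate 2 or 3. The interaction count of 5, EGLN3 included, became 2 with a limit of 1 (EGLN1 and EGLN3) and 8 without a limit. EGLN3 counts in H196 were too low for a reading of that call. The H196 difference of the HIF1A to EPAS1 ratio was -1.15 with FPKM + 0.1, and the EGLN3 share differed by 5.33 percentage points when taken from CPM without gene length, in place of 6.40. Where the construction of a setting does not show it, the cause was not tested.

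Changes of sign were limited to values that did not pass the main test. EPAS1 in MRC5_coH196 was -0.17 on both FPKM scales, -3.9e-05 without a filter, -0.0023 with the compared groups alone and -0.04 to 0.06 with a library left out. In MRC5_coH69, HIF3A was -0.12 and -0.01 on the FPKM scales and -0.0026 to 0.87 with a library left out, EGLN3 was 0.01 with log2(FPKM + 0.1) and -0.93 to 1.98 with a library left out, ARNT ranged from -0.04 to 0.03 and HIF1AN from -0.03 to 0.00093. VHL in MRC5_coH196 against MRC5_coH69 was -0.06 and -0.05 on the FPKM scales. In H196_Co, CITED2 was -0.06 on both FPKM scales and -0.04 to 0.05 with a library left out, and VHL -0.06 to 0.05.

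Of 368 values of single members under other settings, 344 kept direction and side of the threshold, as did 345 of 372 with a library left out. Over all genes, MRC5_coH69 had 71 DEGs, 44 with DESeq2, 18 and 42 on the FPKM scales, 9 with a fold limit of 1 and 859 without one. H196_Co had 494, against 194 with log2(FPKM + 1), 147 and 2538. For MRC5_coH196 the 4092 DEGs became 1564 with a limit of 1 and 9522 without, and the split of 2207 higher and 1885 lower became 915 and 2081 with log2(FPKM + 1). Against MRC5_coH69 the counts were 3618, 1353 and 9269, and for the interaction 3357, 1257 and 6958.

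Replicate numbers were not found to pair the libraries. With the replicate block the members' DEG counts were 4, 0, 4, 2 and 5 in the same order of comparisons, and 1 call was lost, VHL in the interaction (-0.21, adjusted p = 0.0687). Counts under 10 limit EGLN3 and HIF3A in H196 and in mono-cultured MRC5.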
